A study of Mus musculus with 4 samples.

Results

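The 7 genes Il6, Osm, Il6ra, Il6st, Stat3, Socs3 and Saa3 carry the interleukin-6 signal from the cytokine to its acute phase product, and they were chosen by symbol. All 7 were present among the 31017 gene symbols of the bone marrow libraries and the 32245 symbols of the tumor libraries. Interleukin-6 (Il6) and oncostatin M (Osm) are related cytokines whose receptors share the signaling chain gp130 (Il6st). Il6ra is the chain that binds interleukin-6 itself, and myeloid cells and lymphocytes differ in whether they carry it. Bound receptors switch on the transcription factor STAT3, which in turn drives Socs3, the inhibitor that blocks gp130 and closes the loop. Saa3 is an acute phase serum amyloid A protein that macrophages and other cells outside the liver make during inflammation.

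KO mice were S100a8fl/fl Vav-Cre+/-, in which a Cre driven by Vav deletes S100a8 in blood-forming cells, and WT mice were S100a8fl/fl Vav-Cre-/-, which carry the same floxed allele without Cre. The series title places the comparison in the study of myelopoiesis and antitumor immunity. CD45+ cells, the leukocytes, were sorted from the bone marrow of mice without tumors and from tumors of LLC, a mouse lung carcinoma line, and single-cell RNA was captured in droplets. For each tissue there is 1 KO and 1 WT library, each pooled from 3 mice, which makes 4 groups. The labels give no age or sex. Differences between KO and WT therefore have no replicate check and no test, and every interval below is a 95% interval for counting error alone.

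The libraries held 51776813 (KO) and 32906493 (WT) UMIs in bone marrow and 111214201 (KO) and 102548178 (WT) in tumor, a UMI being a count of 1 captured RNA molecule. After filtering, 9844 KO and 7433 WT bone marrow cells and 10322 KO and 10474 WT tumor cells remained. S100a8, the deleted gene, had 6 UMIs in KO and 2010523 in WT bone marrow, and 82 in KO and 11454 in WT tumor, so the KO libraries were the ones that nearly lacked it. Cell barcodes found in both libraries of a tissue numbered 21 in bone marrow and 22 in tumor. Classes were rebuilt by clustering and named from marker genes, with at least 3 markers detected, so each name means "-like" and can differ from the authors' names. The 7 genes were kept out of the clustering. Levels are CPM, the UMIs of a gene per 1000000 UMIs of its class, in a total without S100a8, S100a9, hemoglobin, mitochondrial and ribosomal protein genes. CPM is not divided by gene length, so levels were compared between cells and not between genes.

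All 7 are protein-coding genes (GRCm38, GENCODE M21). Il6 (ENSMUSG00000025746) lies on chromosome 5 from 30013114 to 30019981 on the plus strand, and Osm (ENSMUSG00000058755) on chromosome 11 from 4236420 to 4241026, also plus. The receptor genes are Il6ra (ENSMUSG00000027947, chromosome 3, 89864059 to 89913196, minus) and Il6st (ENSMUSG00000021756, chromosome 13, 112464070 to 112510086, plus). Stat3 (ENSMUSG00000004040, 100885098 to 100939540) and Socs3 (ENSMUSG00000053113, 117966079 to 117970047) are both on the minus strand of chromosome 11. Saa3 (ENSMUSG00000040026) lies on chromosome 7 from 46711998 to 46715700, minus.

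The promoters of Il6, Socs3 and Saa3, the 3 genes called higher in KO tumor monocyte or macrophage-like cells, are shown because they hold letters known as landing sites of the factors of this pathway. Each runs from 250 bases before to 50 bases after the RefSeq start (GRCm38.p6), written 5′ to 3′ on the gene's strand, with motif matches in capitals. The Il6 window is chr5:30012864-30013163 on the plus strand, with a C/EBP match (TTGCNNAA, read on either strand) and an NF-kB core match (GGNNTTTCC, either strand). The Socs3 window is chr11:117969317-117969616 on the minus strand, with a STAT match (TTCNNNGAA), and it lies inside the GENCODE gene because the RefSeq start does. The Saa3 window is chr7:46715627-46715926 on the minus strand, with a C/EBP match and an NF-kB core match.
Il6: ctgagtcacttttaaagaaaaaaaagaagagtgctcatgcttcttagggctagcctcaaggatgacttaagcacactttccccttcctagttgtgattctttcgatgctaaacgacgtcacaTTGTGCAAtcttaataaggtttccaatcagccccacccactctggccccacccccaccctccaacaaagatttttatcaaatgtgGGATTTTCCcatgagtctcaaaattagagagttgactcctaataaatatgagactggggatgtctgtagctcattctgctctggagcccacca
Socs3: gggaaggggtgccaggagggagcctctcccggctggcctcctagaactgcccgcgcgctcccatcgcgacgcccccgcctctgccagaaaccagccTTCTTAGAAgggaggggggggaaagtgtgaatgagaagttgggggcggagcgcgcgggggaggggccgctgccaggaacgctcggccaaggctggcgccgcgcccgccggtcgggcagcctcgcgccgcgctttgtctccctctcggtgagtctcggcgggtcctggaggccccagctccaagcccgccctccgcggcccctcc
Saa3: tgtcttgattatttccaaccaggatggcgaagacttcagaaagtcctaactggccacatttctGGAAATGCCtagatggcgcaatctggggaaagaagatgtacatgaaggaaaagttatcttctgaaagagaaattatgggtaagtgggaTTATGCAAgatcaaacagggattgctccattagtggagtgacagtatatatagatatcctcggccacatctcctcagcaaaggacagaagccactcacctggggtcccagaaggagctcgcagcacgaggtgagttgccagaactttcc
Among all 32851 promoters of the RefSeq table, 8.30% held the STAT motif, 10.8% the C/EBP motif and 5.82% the NF-kB motif. None of the 3 motifs occurred in the windows of Il6ra, Il6st and Stat3. Osm had no matched promoter window and was not searched. A match describes letters and says nothing of binding in these cells.

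A gene was measured in a class when it had at least 50 UMIs over both libraries, and was called higher or lower in KO when its level ratio was past 1.5-fold and the interval was clear of 1. Classes with at least 100 cells in each library were compared. In tumor, 10 of 28 measured pairs of gene and class were called. In monocyte or macrophage-like cells all 7 genes were measured and 3 were called higher in KO (Il6, Socs3 and Saa3), where 6.0% of all measured genes were called higher and 18.3% lower. In neutrophil-like cells 5 were measured, and Saa3 was called higher and Il6ra lower, where 5.57% of all measured genes were called higher and 25.6% lower, so lower calls were common there. In cDC2-like cells, a dendritic subset, Socs3 and Osm of 6 measured were called higher (4.76% of all measured genes were). In T-like cells Saa3 and Osm of 6 measured were called higher (6.75% of all), and in NK-like cells Socs3 of 4 measured was called lower (5.24% of all).

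The median gene itself was lower in KO in some tumor classes, by a log2 ratio of -0.36 in neutrophil-like, -0.20 in monocyte or macrophage-like and -0.11 in cDC2-like cells, and within 0.05 of 0 in the other classes. With ratios divided by that median, higher genes made up 46.7% of the calls in neutrophil-like cells in place of 17.9%, 50.3% in place of 24.7% in monocyte or macrophage-like cells, and 51.8% in place of 33.8% in cDC2-like cells. On that centred scale Osm was also called higher in monocyte or macrophage-like cells (1.51-fold), Osm (1.79-fold), Stat3 (1.70-fold) and Socs3 (1.63-fold) were called higher in neutrophil-like cells, and Il6ra in neutrophil-like cells, at 0.821, was no longer called.

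In bone marrow, 8 of 34 measured pairs were called. Osm was higher in immature neutrophil-like cells (1 of 3 measured genes, against 2.52% of all measured genes called higher), granulocyte progenitor-like cells (1 of 4, against 1.31%), B precursor-like cells (1 of 4, against 6.89%) and progenitor or megakaryocyte-like cells (1 of 4, against 3.08%). Socs3 was higher in mature neutrophil-like cells (1 of 4, against 5.12%) and monocyte-like cells (1 of 5, against 2.38%). Il6ra and Il6st were lower in T or NK-like cells (2 of 3, against 3.67% of all genes called lower). No measured gene of the set was called in either direction in B-like cells (0 of 2, 6.63% of all genes called), erythroid-like cells (0 of 2, 3.7%) or plasmacytoid dendritic-like cells (0 of 3, 5.42%).

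Il6 itself was scarce in bone marrow, with 105 UMIs in the KO library and 75 in the WT library. Of these, 100 in KO and 71 in WT fell in basophil or mast-like cells, although that cluster held only 73 KO and 122 WT cells, too few in KO to be compared. There Il6 stood at 279 CPM in KO cells and 199 CPM in WT cells, and 52.1% of KO and 33.6% of WT cells held at least 1 UMI, or 15.1% in KO and 14.0% in WT with every cell thinned to 1000 UMIs. No compared bone marrow class held more than 2 Il6 UMIs in either library. Immature neutrophil-like cells, for example, had 0 in 2861 KO cells, which allows a share of up to 0.105% of cells with a UMI.

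In tumors monocyte or macrophage-like cells held the most Il6 UMIs of any class. Their share was 87.8% of the 1149 Il6 UMIs of the KO library and 37.3% of the 504 of the WT library. The level was 25.1 CPM in KO (1009 UMIs) and 15.3 CPM in WT (188 UMIs), a ratio of 1.64 (1.40 to 1.92), with a UMI in 8.21% of KO and 5.11% of WT cells (2.71% in KO and 1.70% in WT at 2000 UMIs per cell). The class was made of different cells in the libraries. Cluster 13, led by Serpinb2, Nos2 and Arg1, and cluster 0, led by Chil3, made up 32.7% and 25.2% of it in KO but 5.30% and 5.23% in WT, while cluster 1, led by Lyz2 and Fn1, made up 29.6% in KO and 71.1% in WT.

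No single cluster of the class reached the call for higher Il6 in KO. In cluster 13 it stood at 42.0 CPM in KO cells and 37.3 CPM in WT cells (ratio 1.13, 0.736 to 1.81). In cluster 0 it stood at 32.3 CPM in KO cells and 50.5 CPM in WT cells (0.638, 0.438 to 0.962), which met the call for lower, and in cluster 1 at 10.5 CPM in KO cells and 15.02 CPM in WT cells (0.697, 0.539 to 0.901). With the clusters weighted equally the class ratio was 0.830, the opposite direction, at a finer clustering (resolution 2 in place of 1) it was 1.37, and with doublets kept it was 1.3003, each short of the call. Outside this class, migratory dendritic-like cells stood at 27.0 CPM in KO (83 cells) and 24.4 CPM in WT, and cDC2-like cells at 4.86 CPM in KO cells and 4.2997 CPM in WT cells. Neutrophil-like cells held 6 UMIs in 3106 KO cells and 9 UMIs in 222 WT cells. The 6 basophil or mast cell markers summed to 0.0824 CPM in KO (1 detected) and 41.8 CPM in WT (5 detected) neutrophil-like cells, and their part in the Il6 counts was not tested. T-like cells held 5 UMIs in KO and 31 in WT, 28 of them in 1 WT cell.

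Osm, the other cytokine, was highest in mature neutrophils among the compared bone marrow classes. In mature neutrophil-like cells it stood at 419.5 CPM in KO cells and 336 CPM in WT cells (ratio 1.25, 1.15 to 1.36), and a UMI was found in 39.1% of KO and 27.3% of WT cells. Basophil or mast-like cells, too few in KO to be compared, stood at 393 CPM in KO cells and 465 CPM in WT cells. The level was higher in KO in each of the 4 mature neutrophil-like clusters, with ratios of 2.13, 1.19, 1.28 and 1.39 in clusters 2, 3, 6 and 9.

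Immature neutrophil-like cells stood at 115 CPM of Osm in KO and 72.9 CPM in WT (1.58, 1.40 to 1.79). Cluster 4, where Osm was highest, made up 57.7% of the class in KO and 39.4% in WT, and the ratios inside clusters 4, 5 and 11 were smaller, at 1.31, 1.15 and 1.21. Weighted equally the clusters gave 1.26, with doublets kept the ratio was 1.203, and at the finer resolution it was 1.46, all short of the call.

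In 3 more bone marrow classes the Osm call rested on few UMIs. In B precursor-like cells the level was 18.9 CPM in KO (33 UMIs) and 7.33 CPM in WT (21 UMIs), a ratio of 2.58 (1.45 to 4.70) that was 2.01 and no longer called in thinned cells. In progenitor or megakaryocyte-like cells it was 40.5 CPM in KO (61 UMIs) and 11.7 CPM in WT (13 UMIs), a ratio of 3.45 (1.88 to 6.84) that was 1.80 and no longer called in thinned cells, and 1.92 with doublets kept. In granulocyte progenitor-like cells it was 14.99 CPM in KO and 9.03 CPM in WT (1.66, 1.08 to 2.61). As a mean over cells that ratio was 0.665, in thinned cells 1.41 and with doublets kept 3.09, none of them called. The mature neutrophil markers were higher in KO in B precursor-like and in progenitor or megakaryocyte-like cells, but only 1.10-fold higher in granulocyte progenitor-like cells. Among the other marker lists in B precursor-like cells, some were higher in KO as well and others lower. The 9 mature neutrophil markers summed to 1123 CPM in KO and 555 CPM in WT B precursor-like cells (all 9 detected in both), and to 2568 CPM in KO (9 detected) and 923 CPM in WT progenitor or megakaryocyte-like cells (8 detected, Acod1 at 0). In granulocyte progenitor-like cells they summed to 4710 CPM in KO and 4287 CPM in WT (8 detected, Acod1 at 0 in both). Their part in the Osm ratios was not tested.

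**Figure D1:**
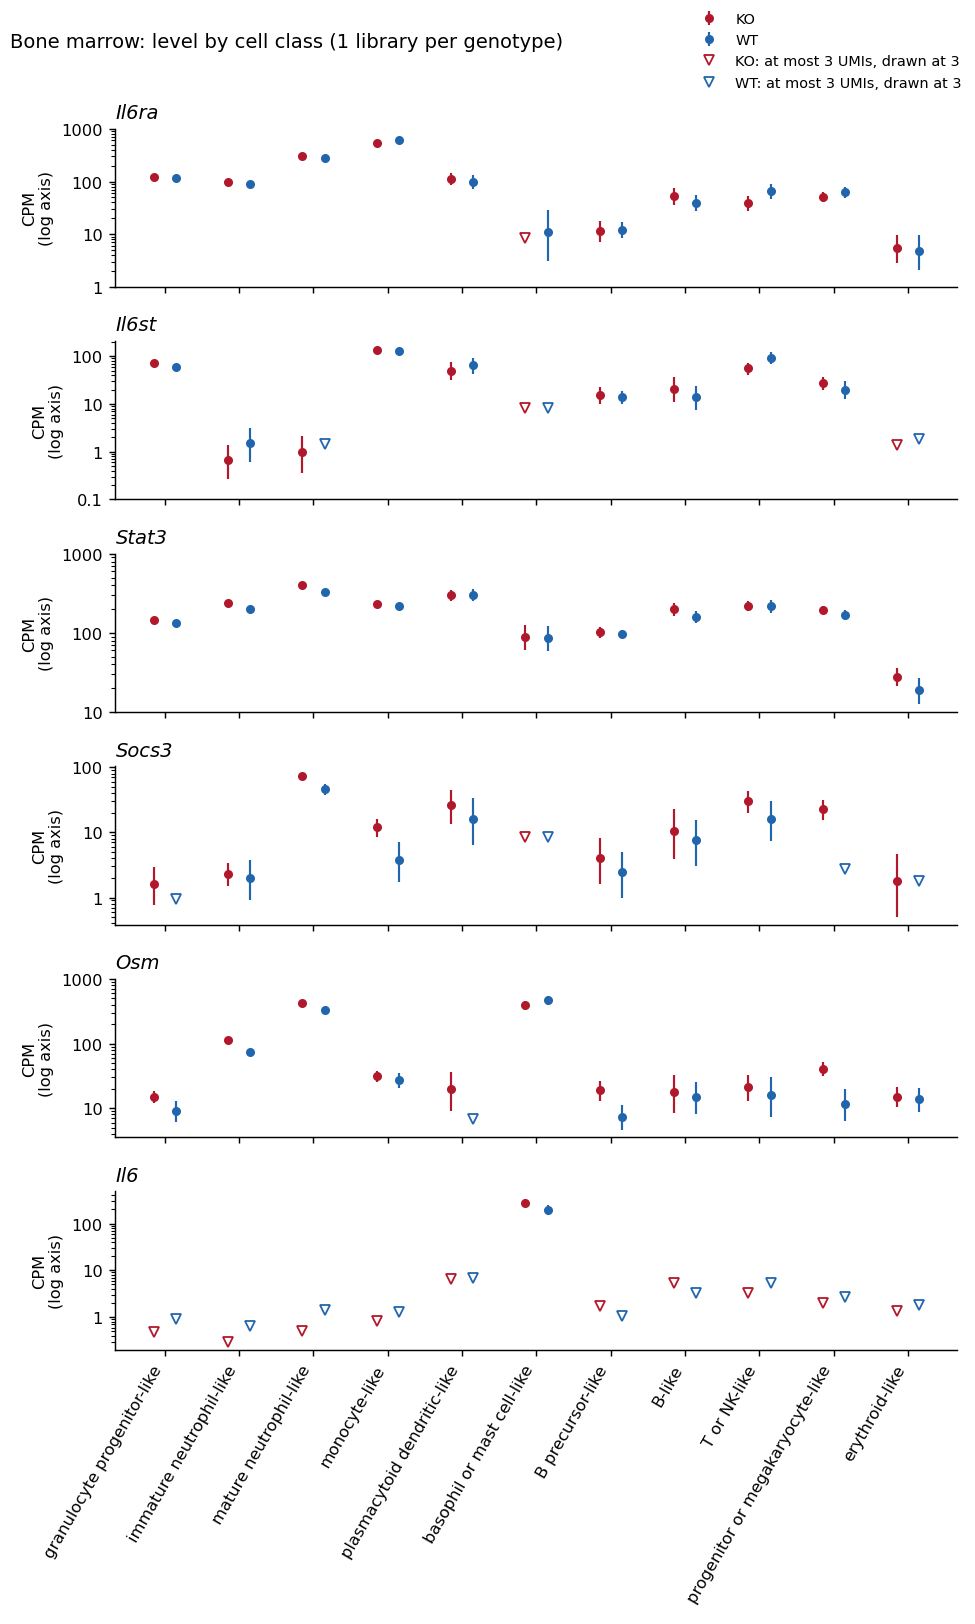
Levels of 6 of the genes in bone marrow classes, with CPM on a log axis, KO points left in red and WT points right in blue, bars giving 95% counting intervals and open triangles marking at most 3 UMIs, drawn at the level of 3. Among the compared classes Osm and Stat3 peaked in mature neutrophil-like cells and Il6ra in monocyte-like cells (535 CPM in KO, 612 CPM in WT), while Il6 was highest in basophil or mast-like cells.

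In tumors Osm was again highest in neutrophil-like cells, at 900.1 CPM in KO (10926 UMIs) and 645 CPM in WT (324 UMIs), a ratio of 1.39 (1.25 to 1.56). Monocyte or macrophage-like cells followed with 439 CPM in KO and 336 CPM in WT (1.31, 1.27 to 1.36). The difference was uneven among their clusters. In cluster 2, led by the tissue macrophage genes Pf4 and C1qa, Osm stood at 246 CPM in KO cells and 59.9 CPM in WT cells (4.11, 3.44 to 4.95), whereas in cluster 0 it stood at 464 CPM in KO cells and 502 CPM in WT cells (0.924, 0.822 to 1.04). cDC2-like cells stood at 253 CPM in KO cells and 136 CPM in WT cells (1.86, 1.70 to 2.03), and their mature neutrophil markers at 5234 CPM in KO cells and 3252 CPM in WT cells, all 9 detected in both. T-like cells stood at 21.0 CPM in KO (155 UMIs) and 9.20 CPM in WT (145 UMIs), a ratio of 2.29 (1.81 to 2.89) that was 0.831 at the finer clustering and 3.56 with doublets kept. In T-like cells the 9 macrophage markers also summed to 311 CPM in KO and 141 CPM in WT, and the 9 mature neutrophil markers to 1587 CPM in KO and 1266 CPM in WT, all detected in both. What these markers contribute to Osm in cDC2-like and T-like cells was not tested.

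Il6ra, the receptor chain specific to interleukin-6, was most abundant in bone marrow monocyte-like cells, at 535 CPM in KO cells and 612 CPM in WT cells (ratio 0.87). Mature neutrophil-like cells came next with 298 CPM in KO and 279 CPM in WT. Granulocyte progenitor-like cells (119.8 CPM in KO, 114 CPM in WT) and plasmacytoid dendritic-like cells (112 CPM in KO, 98.6 CPM in WT) had overlapping intervals in both libraries. The order of the first 5 classes was the same in both libraries. B precursor-like cells, at 11.5 CPM in KO cells and 12.2 CPM in WT cells, and erythroid-like cells, at 5.46 (KO) and 4.84 (WT) CPM, were lowest. Their single-library intervals overlapped, and the difference between them was not computed.

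Within the monocytes, cluster 20, a small group led by Ace, held 1076 CPM of Il6ra in KO (83 cells) and 604 CPM in WT (57 cells), a ratio of 1.78 (1.31 to 2.45), too small a cluster for the comparison of classes. In T or NK-like cells Il6ra was lower in KO, at 39.0 CPM (35 UMIs) in KO and 66.5 CPM (37 UMIs) in WT, a ratio of 0.587 (0.36 to 0.96). It was no longer called with doublets kept (0.824), as a mean over cells (0.746), at most 5% mitochondrial UMIs (0.652) or in thinned cells (0.531). The 6 NK markers, of which all were detected, summed to 2581 CPM in KO and 1911 CPM in WT, and the 6 T markers to 3779 CPM in KO and 4124 CPM in WT, so the mix of the class differed too, and its part was not tested.

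In tumors Il6ra was found mainly in myeloid cells. Monocyte or macrophage-like cells held 81.1 CPM in KO and 108 CPM in WT (0.75, 0.70 to 0.80), which did not reach the call. Neutrophil-like cells held 47.1 CPM in KO (572 UMIs) and 73.7 CPM in WT (37 UMIs), a ratio of 0.639 (0.46 to 0.92), which was no longer called after centring (0.821), in thinned cells (0.645) or as a mean over cells (0.678). The monocyte markers, all 8 detected in both libraries, summed to 538 CPM in KO and 1277 CPM in WT neutrophil-like cells, and their part was not tested. cDC2-like cells held 70.3 CPM in KO and 74.2 CPM in WT, T-like cells 15.5 (KO) and 17.3 (WT) CPM, and NK-like cells 2 UMIs in KO and 4 in WT.

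Il6st, the shared gp130 chain, was nearly absent from the UMIs of neutrophils. Mature and immature neutrophil-like cells of bone marrow held 6 and 7 UMIs in KO (0.997 and 0.674 CPM) and 0 and 7 UMIs in WT, and tumor neutrophil-like cells held 17 UMIs in KO and 1 in WT. Neutrophil-like cells thus had Il6ra counts with hardly any Il6st counts. Bone marrow monocyte-like cells held both chains, with Il6st at 137 CPM in KO cells and 127 CPM in WT cells. Granulocyte progenitor-like cells stood at 71.1 CPM in KO cells and 58.9 CPM in WT cells, nearly all of it in cluster 7 (159 CPM in KO, 151 CPM in WT) and little in cluster 12 (3.66 CPM in KO, 4.46 CPM in WT).

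T or NK-like cells of bone marrow held 55.7 CPM of Il6st in KO (50 UMIs) and 93.4 CPM in WT (52 UMIs), a ratio of 0.597 (0.40 to 0.90) that was no longer called with doublets kept (0.688), in thinned cells (0.665) or as a mean over cells (0.808). In tumors Il6st stood at 40.7 (KO) and 38.3 (WT) CPM in cDC2-like cells, at 29.3 (KO) and 26.1 (WT) CPM in T-like cells, and at 27.9 (KO) and 31.2 (WT) CPM in monocyte or macrophage-like cells. None of these was called. Among the T-like clusters, regulatory T-like cluster 6 was highest, at 69.6 CPM in KO cells and 75.9 CPM in WT cells. NK-like cells held 6.48 CPM in KO and 5.99 CPM in WT.

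Stat3, the transcription factor of the pathway, was expressed in every compared class. In bone marrow it was highest in mature neutrophil-like cells, at 409 CPM in KO cells and 329 CPM in WT cells (ratio 1.24), where the WT interval overlapped that of plasmacytoid dendritic-like cells, and lowest in erythroid-like cells, at 27.7 (KO) and 18.7 (WT) CPM. Immature neutrophil-like cells stood at 236 CPM in KO cells and 202 CPM in WT cells (1.17), plasmacytoid dendritic-like cells at 299 (KO) and 303 (WT) CPM, and monocyte-like cells at 232 (KO) and 217 (WT) CPM. No bone marrow class passed the call for Stat3, although erythroid-like cells did so with doublets kept (1.75) and at the finer clustering (1.68).

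Among the compared tumor classes the lymphoid ones had the highest Stat3 levels. Migratory dendritic-like cells, too few in KO to be compared, stood at 779 CPM in KO cells and 483 CPM in WT cells. NK-like cells stood at 823 CPM in KO cells and 785 CPM in WT cells, and T-like cells at 449 CPM in KO cells and 310 CPM in WT cells, a ratio of 1.45 (1.39 to 1.52) just short of the call. The ratio was 1.74 in T-like cluster 5, 1.75 in cluster 21 and 1.64 in cluster 7, but 0.84 in the regulatory T-like cluster 6 and 1.13 in cluster 10, which held the most (1253 CPM in KO, 1110.1 CPM in WT). The mix differed between the libraries, with cluster 3 at 36.2% of the class in KO and 20.9% in WT. Weighted equally, the 7 clusters gave a T-like Stat3 ratio of 1.28. Monocyte or macrophage-like cells, where Socs3 and Saa3 were called higher, showed 202 CPM of Stat3 in KO and 204 CPM in WT (0.988, 0.944 to 1.03), an interval that held 1. After centring on the median gene of the class the Stat3 ratio was 1.14, short of the call. Neutrophil-like cells stood at 274 CPM in KO cells and 207 CPM in WT cells (1.32, 1.09 to 1.63). The messenger level does not report phosphorylation, the step that activates STAT3.

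**Figure D2:**
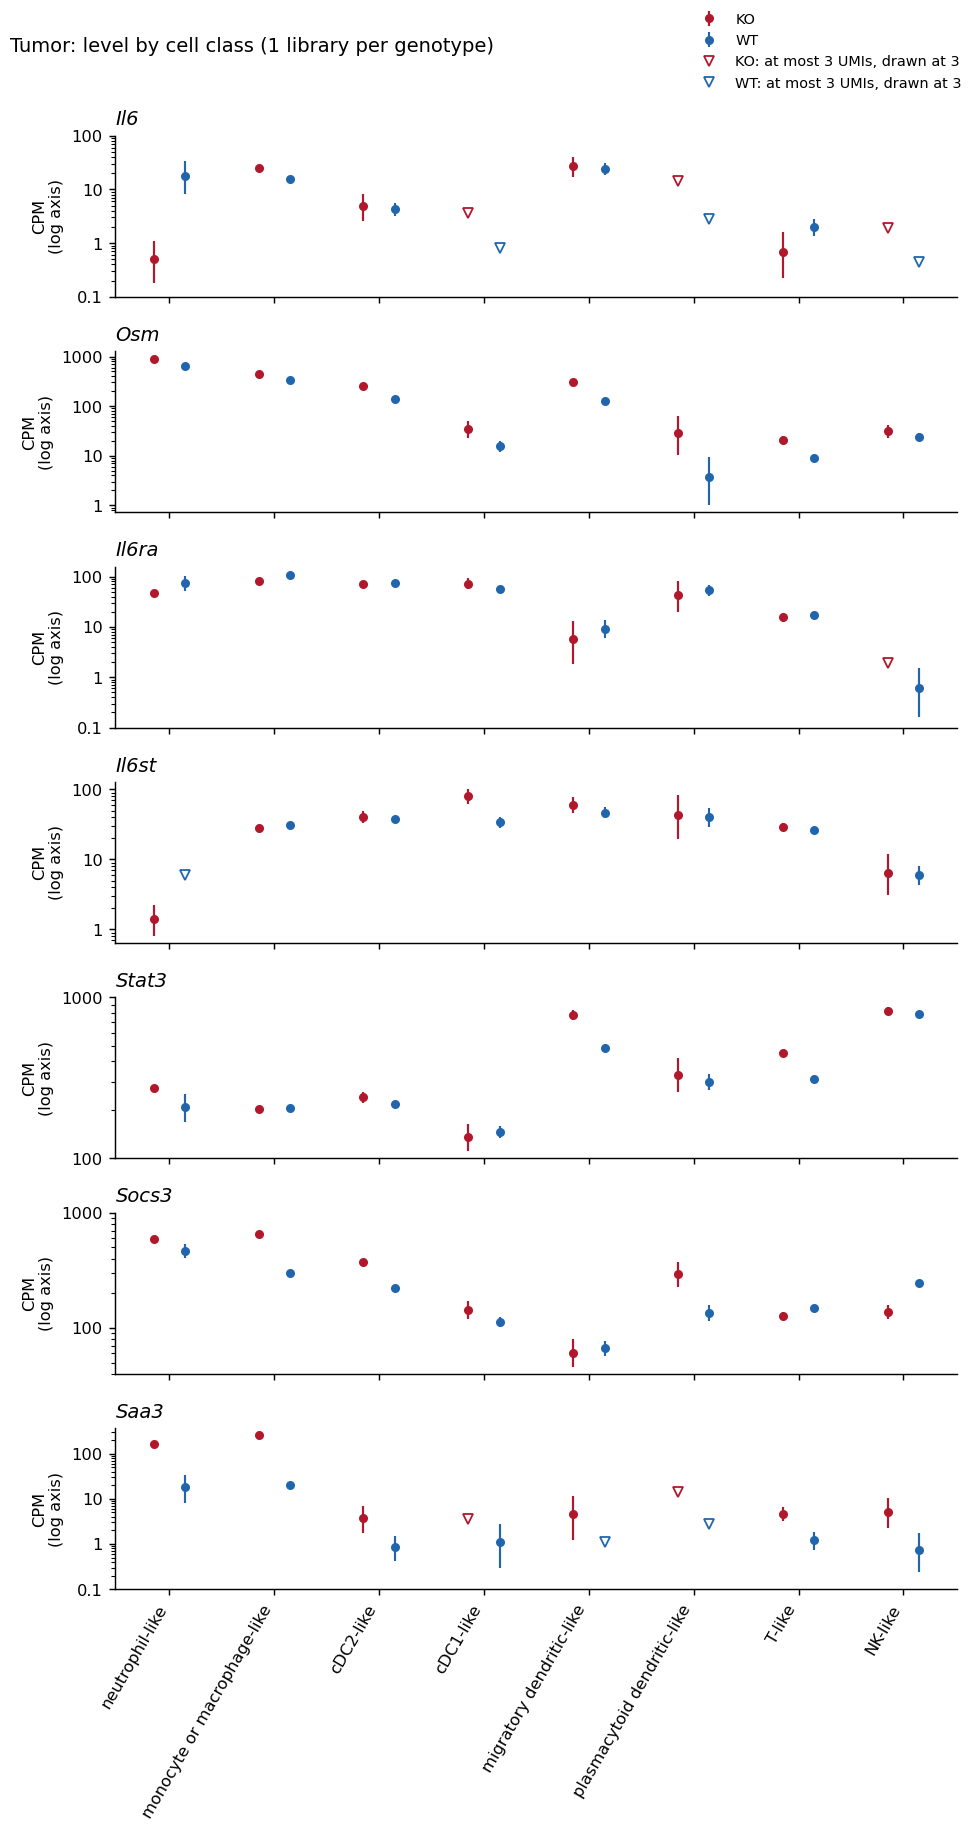
Levels of the 7 genes in tumor classes, with CPM on a log axis, KO points left in red and WT points right in blue, bars giving 95% counting intervals and open triangles marking at most 3 UMIs, drawn at the level of 3. Socs3 and Saa3 stood apart between KO and WT in monocyte or macrophage-like cells (Socs3 657 in KO and 299 in WT, Saa3 254 in KO and 20.5 in WT), while Stat3 did not (202 in KO, 204 in WT).

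Socs3, the feedback inhibitor, was higher in KO in every monocyte or macrophage-like cluster of tumors. Monocyte or macrophage-like cells held 657 CPM in KO (26447 UMIs) and 299 CPM in WT (3670 UMIs), a ratio of 2.20 (2.12 to 2.27). A UMI was found in 88.2% of KO and 62.4% of WT cells, at median depths of 10363 (KO) and 8388 (WT) UMIs, and in 56.2% in KO and 32.0% in WT once cells were thinned to 2000 UMIs. It stood at 771 CPM in KO cells and 451 CPM in WT cells of cluster 0 (1.71), at 576 (KO) and 313 (WT) CPM in cluster 1 (1.84), at 385 (KO) and 174 (WT) CPM in cluster 2 (2.22), and at 759.8 (KO) and 421 (WT) CPM in cluster 13 (1.80). Cluster 9, led by Ace and Tppp3 and left unnamed, stood at 742 CPM in KO cells and 315 CPM in WT cells (2.36, 2.20 to 2.52). With clusters weighted equally the class ratio was 1.83.

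cDC2-like cells held 373 CPM of Socs3 in KO and 222 CPM in WT (1.68, 1.56 to 1.80). Cluster 20, with 86.5% of the class in KO and 68.4% in WT, stood at 385 CPM in KO cells and 200.1 CPM in WT cells (1.92, 1.77 to 2.09), and cluster 18, with 13.5% in KO and 31.6% in WT, at 319 CPM in KO cells and 253 CPM in WT cells (1.26, 1.06 to 1.49). In the whole class the 6 migratory dendritic markers summed to 941 CPM in KO and 426 CPM in WT and the 6 T markers to 450.4 CPM in KO and 1138 CPM in WT, all detected in both, with a part that was not tested. Neutrophil-like cells held 592 CPM in KO and 466 CPM in WT (1.27, 1.12 to 1.45). NK-like cells went the other way. They held 138 CPM in KO (213 UMIs) and 246 CPM in WT (1641 UMIs), a ratio of 0.562 (0.485 to 0.648) at median depths of 9891 UMIs in KO and 5315 in WT, and in thinned cells 20.2% of KO and 28.8% of WT cells held a UMI. T-like cells held 128 CPM in KO and 149 CPM in WT (0.86, 0.80 to 0.93), and their gamma-delta cluster 8 held 64.8 CPM in KO and 141 CPM in WT (0.46, 0.303 to 0.681). The 9 macrophage markers, whose class held the more Socs3, summed to 2032 CPM in KO and 563 CPM in WT NK-like cells, all detected in both, and their part in the Socs3 ratio was not tested.

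In bone marrow Socs3 was found mostly in mature neutrophil-like cells, which held 71.4% of the 612 UMIs of the KO library and 65.1% of the 149 of the WT library. Their level was 72.6 CPM in KO (437 UMIs) and 46.0 CPM in WT (97 UMIs), a ratio of 1.58 (1.27 to 1.99). It was higher in KO in each of the 4 clusters, at 202 CPM in KO cells and 157 CPM in WT cells of cluster 2, at 93.8 (KO) and 72.1 (WT) CPM in cluster 3, at 34.1 (KO) and 19.5 (WT) CPM in cluster 6, and at 20.7 (KO) and 14.2 (WT) CPM in cluster 9, but every one of these 4 ratios had an interval that held 1. The clusters differed in size, since cluster 2 made up 13.6% of the class in KO and 7.20% in WT, and cluster 6 made up 4.302% in KO and 39.6% in WT. Weighted equally they gave 1.33, with doublets kept the ratio was 1.22, and at the finer resolution it was 1.37, all short of the call.

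Bone marrow monocyte-like cells held 11.9 CPM of Socs3 in KO (43 UMIs) and 3.79 CPM in WT (9 UMIs), a ratio of 3.14 (1.51 to 7.33). In thinned cells it was 1.03 and not called, and 0.831% of KO and 0.808% of WT cells then held a UMI. The 9 mature neutrophil markers summed to 2501 CPM in KO and 1800 CPM in WT monocyte-like cells, all detected in both, and their part was not tested. Progenitor or megakaryocyte-like cells held 34 UMIs in KO and 1 in WT, too few to count as measured.

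**Figure D3:**
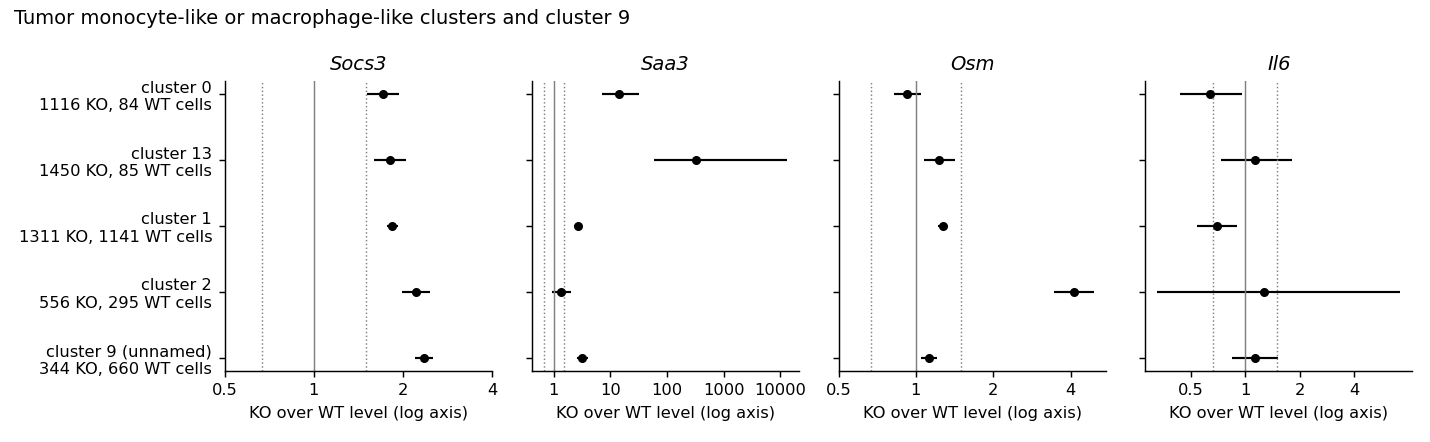
Ratio of KO over WT levels on a log axis in tumor clusters 0, 13, 1, 2 and 9 for Socs3, Saa3, Osm and Il6, with points giving the ratio, bars the 95% counting interval and dotted lines 1.5-fold in either direction. Socs3 lay between 1.71 and 2.36 in all 5 clusters, Osm exceeded 1.5 in cluster 2 only (4.11), and Il6 was below 1 in clusters 0 and 1.

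Saa3, the acute phase product, had the largest called ratios of the 7 genes. In tumor monocyte or macrophage-like cells it stood at 254 CPM in KO (10212 UMIs) and 20.5 CPM in WT (251 UMIs), a ratio of 12.4 (10.9 to 14.1). A UMI was found in 518 of 4433 KO cells (11.7%) and 45 of 1605 WT cells (2.80%), or in 5.95% of KO and 1.17% of WT cells once thinned. As a background, T-like cells, in which the gene is not expected, had one in 2.13% of KO and 0.500% of WT cells at median depths of 6057 (KO) and 4970.5 (WT) UMIs. The near copies Saa1 and Saa2 had 2 UMIs each in the KO class and 0 in WT.

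Most Saa3 came from few cells. The highest KO cell held 770 UMIs and the highest WT cell 58, the first 10 cells held 34.1% of the KO and 79.3% of the WT UMIs, and 20 KO and 3 WT cells held 50% of them. At least 10 UMIs were found in 147 KO cells (3.32%) and 5 WT cells (0.312%). With the highest cell of each library left out the ratio was 14.9.

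By cluster, Saa3 was concentrated in cluster 13, where 1450 KO cells held 7556 UMIs (560.3 CPM) and 85 WT cells held 1, a ratio of 330.0 with a counting interval of 59.2 to 13038. In cluster 0 it stood at 188 CPM in KO (1831 UMIs) and 13.5 CPM in WT (8 UMIs). Cluster 1, which both libraries filled with over 1000 cells, stood at 62.3 CPM in KO cells and 23.3 CPM in WT cells (2.68, 2.29 to 3.14), and cluster 9 at 93.7 CPM in KO cells and 29.5 CPM in WT cells (3.18, 2.57 to 3.94). Cluster 2 stood at 22.2 CPM in KO cells and 16.2 CPM in WT cells, with an interval that held 1 (1.37, 0.939 to 2.04). The ratio was thus largest in clusters 13 and 0, which few WT cells filled (85 and 84), and smaller in clusters 1, 9 and 2, which both libraries filled.

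The other genes were also read in KO cells with and without a Saa3 UMI. The 518 KO cells with one, at a median of 11069 UMIs, held 715 CPM of Socs3, 34.2 CPM of Il6, 217 CPM of Stat3 and 397 CPM of Osm. The 3915 KO cells without one, at a median of 10279 UMIs, held 649 CPM of Socs3, 23.7 CPM of Il6, 199 CPM of Stat3 and 446 CPM of Osm. These cells share a library, and the difference was not tested.

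**Figure D4:**
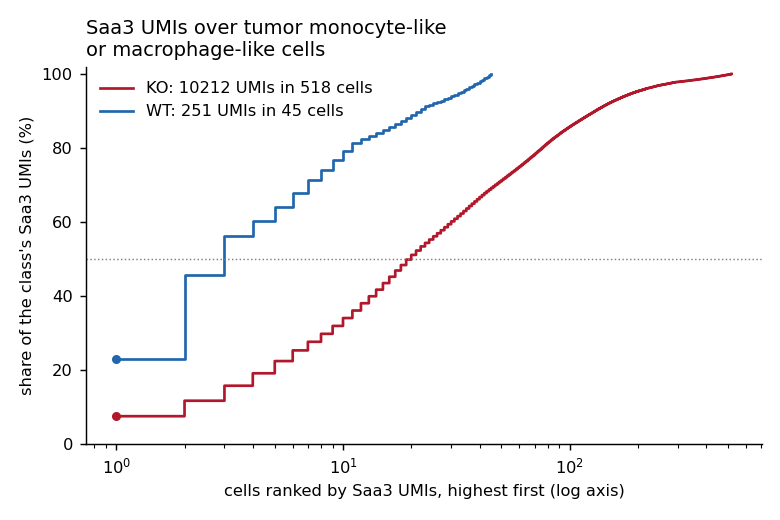
Cumulative share of Saa3 UMIs, in percent, over tumor monocyte or macrophage-like cells ranked from the highest Saa3 count on a log axis, with KO in red and WT in blue. The curve of KO rises more slowly, since its first 10 cells held 34.1% of the UMIs against 79.3% in WT.

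Tumor neutrophil-like cells held 160.2 CPM of Saa3 in KO (1945 UMIs in 184 of 3106 cells) and 17.9 CPM in WT (9 UMIs in 4 of 222 cells), a ratio of 8.94 (4.70 to 19.6) that was 14.4 without the highest cell of each library. The direction was the same in both neutrophil-like clusters, 11 (182 CPM in KO, 15.9 CPM in WT) and 12 (113 CPM in KO, 24.0 CPM in WT from 3 UMIs, a ratio of 4.71 with an interval of 1.60 to 22.9). The macrophage markers, all 9 detected, summed to 1443 CPM in KO and 1329 CPM in WT neutrophil-like cells. T-like cells held 4.62 CPM of Saa3 in KO (34 UMIs) and 1.21 CPM in WT (19 UMIs), a ratio of 3.83 (2.12 to 7.11) that was 35.7 with doublets kept and no longer called in thinned cells (4.27), and no KO or WT T-like cell held more than 2 UMIs. NK-like cells held 8 UMIs in KO and 5 in WT and cDC2-like cells 10 in KO and 11 in WT. The T-like share is the background used above and is not read as expression. Saa3 of the whole library was 173 CPM in KO and 19.2 CPM in WT, and its part in the T-like ratio was not tested.

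Of the 1205 Saa3 UMIs of the WT tumor library, 766 lay in 1 barcode of the small stromal or carcinoma-like class, which held 768 in WT (76 cells) and 15 in KO (134 cells). Bone marrow held 22 Saa3 UMIs in KO and 8 in WT, of which monocyte-like cells had 15 in KO and 2 in WT, too few to count as measured.

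The 110 other genes of the pathway were taken as 9 lists and read in whole classes. The clusters of some classes differed in share between the libraries. Cluster 13, for example, made up 32.7% of the tumor monocyte or macrophage-like class in KO and 5.30% in WT. The part of this mix in the list ratios was not tested. In tumor monocyte or macrophage-like cells, 16 of 81 measured genes were called higher in KO and 10 lower, where 6.0% of all measured genes were called higher and 18.3% lower. After centring the counts were 22 and 10, where 9.94% of all genes were called higher and 19.8% in either direction. The list genes stood at a median log2 ratio of 0.04 against -0.20 for all genes. The acute phase list had the widest shift, with 4 of 6 measured genes higher and 1 lower, at a median log2 ratio of 1.71. Lrg1, a leucine-rich acute phase glycoprotein, stood at 53.1 CPM in KO cells and 5.38 CPM in WT cells (9.87-fold), and Lcn2, the iron-scavenging lipocalin, at 79.6 (KO) and 9.30 (WT) CPM (8.56-fold). Hp, haptoglobin, stood at 438 CPM in KO cells and 275 CPM in WT cells (1.59-fold). Cfb, complement factor B, was lower, at 31.9 CPM in KO cells and 98.4 CPM in WT cells (0.325).

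The STAT3 target list, with 24 measured genes in that class, had 7 higher and 3 lower. Mmp9, a secreted gelatinase, stood at 86.7 CPM in KO cells and 11.5 CPM in WT cells (7.53-fold), Il10, the anti-inflammatory cytokine, at 71.9 (KO) and 24.3 (WT) CPM (2.96-fold), and Vegfa, the vascular growth factor, at 455 (KO) and 178 (WT) CPM (2.55-fold). Ccnd1, a cell cycle cyclin, was lower, at 23.8 CPM in KO cells and 96.4 CPM in WT cells (0.247). Many of these targets answer to other factors too. Among the related cytokines 1 of 5 measured was called, Lif, at 38.4 CPM in KO cells and 4.89 CPM in WT cells (7.84-fold), and among the related receptors 2 of 3 were lower, including Il11ra1 at 11.2 CPM in KO cells and 20.6 CPM in WT cells (0.543).

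Of the 11 relay genes in this class Jak2, a kinase that gp130 uses, was higher at 95.8 CPM in KO cells and 50.3 CPM in WT cells (1.91-fold), and Stat2 was lower at 20.9 (KO) and 36.1 (WT) CPM (0.577). Of the 14 brakes other than Socs3, Socs2 alone was called, and it was lower (3.23 CPM in KO, 7.26 CPM in WT, 0.445). The mature neutrophil markers, all 9 detected in both, summed to 4469 CPM in KO and 2815 CPM in WT in this class. Their part in the higher Lcn2, Lrg1 and Mmp9, which neutrophils also make, and in the higher Hp was not tested. Of the 10 genes that control Il6 transcription or its mRNA, Nfkbiz, which helps to switch Il6 on, stood at 524 CPM in KO cells and 224 CPM in WT cells (2.34-fold), Zc3h12a, the nuclease that degrades Il6 mRNA, at 162 (KO) and 107 (WT) CPM (1.52-fold), and Atf3, a repressor, at 319.5 (KO) and 576 (WT) CPM (0.555). Among the 5 genes for receptors that bind serum amyloid A, Fpr2 was higher (144 CPM in KO, 46.7 CPM in WT, 3.09-fold) and Cd36 lower (30.1 CPM in KO, 58.3 CPM in WT, 0.516).

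In tumor neutrophil-like cells 11 of 62 measured pathway genes were called higher and 7 lower, where 5.57% of all genes were called higher and 25.6% lower. After centring the counts were 23 and 4, where 12.9% of all genes were called higher and 27.7% in either direction. The list genes stood at a median log2 ratio of 0.21 against -0.36 for all genes. All 4 of the called genes that control Il6 were higher, with Nfkbiz at 2316 CPM in KO cells and 1231 CPM in WT cells (1.88-fold) and Zfp36 at 2518 (KO) and 1478 (WT) CPM (1.70-fold). Steap4, an inflammation-induced metalloreductase, stood at 234 CPM in KO cells and 61.7 CPM in WT cells (3.79-fold, 31 WT UMIs), and Batf, a STAT3-induced factor, at 168 (KO) and 71.7 (WT) CPM (2.35-fold). Lower genes included Stat2 (0.202) and the brake Cish at 39.7 (KO) and 104 (WT) CPM (0.383). The WT cells of this class were only 222, and the 6 T markers summed to 19.9 CPM in KO and 227 CPM in WT cells, all detected in both, with a part in the lower genes that was not tested.

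In cDC2-like cells 13 of 75 measured pathway genes were higher and 6 lower, where 4.76% of all measured genes were called higher and 9.3% lower. After centring the counts were 15 and 3, where 6.67% of all genes were called higher and 12.9% in either direction. The higher genes included Vegfa (238 CPM in KO, 73.8 CPM in WT, 3.22-fold) and Timp1 (184 CPM in KO, 66.3 CPM in WT, 2.78-fold). In T-like cells 13 of 72 were higher and 3 lower (6.75% and 2.46% of all genes), led by Lcn2, with 105 UMIs in KO and 7 in WT, a myeloid product at 14.3 (KO) and 0.444 (WT) CPM. In NK-like cells 6 of 60 were higher and 6 lower (5.15% and 5.24% of all genes), the lower ones including the immediate early gene Fos (45.3 CPM in KO, 126 CPM in WT, 0.360), its partner Junb (1820 CPM in KO, 3014 CPM in WT, 0.604) and Zfp36 (88.1 CPM in KO, 212 CPM in WT, 0.415). Fos, Junb and Zfp36 stood lower in the same NK-like cells as Socs3. Of the 20 measured STAT3 targets there, 5 were called higher and 2 lower. The acute phase list was shifted in other tumor classes too. Its median log2 ratio was 2.70 in T-like cells (3 measured), 0.73 in cDC2-like cells (4 measured) and 0.61 in neutrophil-like cells (6 measured). The 3 genes in T-like cells include Lcn2, the myeloid product above, and the part of RNA from myeloid cells in that median was not tested. In NK-like cells it was -0.72 (1 measured).

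**Figure D5:**
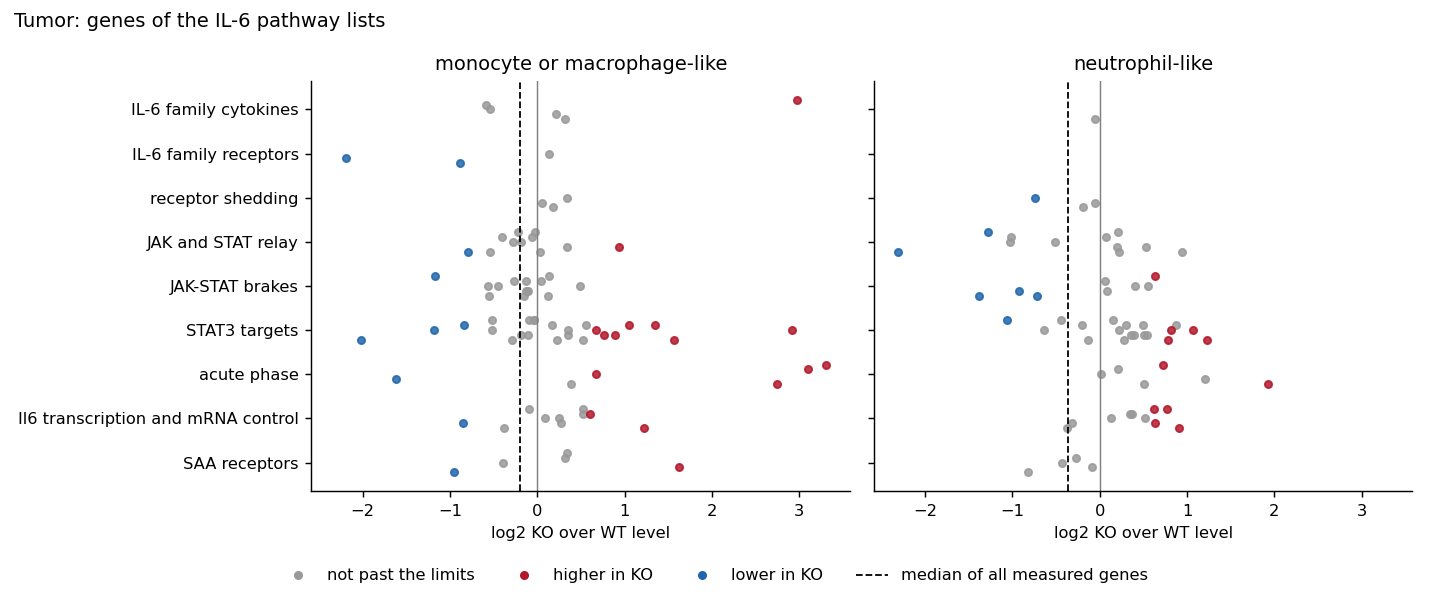
Log2 ratios of KO over WT levels of each measured gene of the 9 pathway lists in tumor monocyte or macrophage-like and neutrophil-like cells, 1 point per gene, with a dashed line at the median of all genes (-0.20 and -0.36). In monocyte or macrophage-like cells the acute phase list has the highest median, 1.71, although 1 of its 6 genes, Cfb, was called lower.

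In bone marrow mature neutrophil-like cells 9 of 62 measured genes were higher and 4 lower (5.12% and 7.87% of all genes). Steap4 stood at 91.4 CPM in KO cells and 21.8 CPM in WT cells (4.19-fold), Batf at 30.1 (KO) and 15.6 (WT) CPM (1.92-fold) and the kinase gene Pim1 at 637 (KO) and 419.5 (WT) CPM (1.52-fold). Il1rn, the interleukin-1 receptor antagonist, was lower at 232 CPM in KO cells and 357 CPM in WT cells (0.649). Steap4 and Batf were thus called higher in the neutrophil-like cells of both tissues, each tissue having its own KO and WT libraries. In immature neutrophil-like cells 3 of 63 were higher and 2 lower (2.52% and 4.66% of all genes), with Fos at 356 CPM in KO cells and 195 CPM in WT cells (1.82-fold). Monocyte-like cells had 4 of 64 higher and 0 lower (2.38% and 2.18% of all genes), including Fpr2 at 96.7 CPM in KO cells and 40.9 CPM in WT cells (2.37-fold).

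The widest bone marrow count was in progenitor or megakaryocyte-like cells, with 15 of 56 higher and 2 lower (3.08% and 2.79% of all genes). Fpr2 stood at 86.3 CPM in KO cells and 10.8 CPM in WT cells (7.96-fold) and Lcn2 at 541 (KO) and 263 (WT) CPM (2.06-fold). These are the cells whose mature neutrophil markers were 2.78-fold higher in KO, with a part that was not tested. In B precursor-like cells 11 of 60 were higher and 6 lower, where 6.89% of all genes were called higher and 4.9% lower. In T or NK-like cells 2 of 51 were higher and 7 lower (3.63% and 3.67% of all genes), and in granulocyte progenitor-like cells 5 of 68 were higher and 0 lower (1.31% and 1.75%). The counts were near the share of all genes in B-like cells, with 3 of 48 higher and 2 lower (3.6% and 3.04%), and in plasmacytoid dendritic-like cells, with 2 of 38 higher and 2 lower (2.77% and 2.65%). Erythroid-like cells had 4 of 46 higher and 0 lower (1.74% and 1.95%).

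Genes whose levels followed those of the 7 most closely were sought over class and library points, as a description, since points share libraries and classes. Over 20 bone marrow points, Osm lay closest to Ifit1bl2 (Pearson r of 0.970), Ccr1 (0.959) and Trpm2 (0.958), Il6ra to Soat1 (0.946), Il6st to Trio (0.956), Stat3 to Dock8 (0.955) and Socs3 to Tmem140 (0.894). Over 10 tumor points, Socs3 lay closest to Sod2 (0.934), Saa3 to Abcc1 (0.938) and P4ha1 (0.936), Osm to Gab2 (0.993), Il6ra to Ifngr2 (0.993) and Stat3 to Gm50012 (0.989).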

How the data were processed

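The 4 libraries hold single-cell RNA of sorted CD45+ mouse cells. The files are raw UMI counts, as deposited by the authors, in 1 matrix for each library. Per the file headers the bone marrow matrices come from Cell Ranger 3.1.0 and the tumor ones from 6.0.2. The submitters' processing notes list mm10, GRCm38, R 4.2.1, Seurat 4.3.0 and Cell Ranger 6.1.2. Each tissue was analysed alone. A cell was kept at 200 genes or more and 10% mitochondrial UMIs or less. The doublet caller scrublet failed to set a threshold in 2 libraries, so the highest scores were removed in all 4, at 0.8% per 1000 barcodes, a rule chosen after seeing the data. Clustering in scanpy 1.11.5 (Leiden, leidenalg 0.10.2, resolution 1) used 2000 variable genes without the 7 genes and the pathway lists, 30 components and 15 neighbors, and clusters were named from 25 marker lists. UMIs were summed over each class and library. Ratios carry exact conditional intervals, levels Poisson intervals and shares Clopper-Pearson intervals (95%), and a count of 0 is given a limit of 3. UMIs of 1 cell are not independent. The ratio call was tested on simulated Poisson counts. These had no variation between cells, mice or libraries, so that test covers counting error only.

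Median depths were 2736.5 (KO) and 2236 (WT) UMIs per cell in bone marrow and 7860 (KO) and 6377 (WT) in tumor. Shares are therefore also given with cells thinned to 1000 (bone marrow) or 2000 (tumor) UMIs. The members and lists were chosen with earlier results of these data known. All 7 genes are described, and a list may give up to 4 called genes of the largest ratios, each with at least 100 UMIs, and the 3 genes most alike by Pearson r of log2(CPM+1), of which the text gives a selection. Alternatives were doublets kept, all UMIs as the total, a mean over cells, thinned cells, a limit of 5% mitochondrial UMIs, the highest cell left out, resolution 2 and a minimum of 200 UMIs, and, added later, centring and equal weights of clusters.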

Additional observations from a re-analysis of the deposited data

Results flagged for a closer look

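Il6 stood out in cells that were too few to be compared or had no name. Its level in bone marrow basophil or mast-like cells, at 279 CPM in KO cells and 199 CPM in WT cells, was above that in every compared bone marrow class. In tumors, migratory dendritic-like cells stood at 27.0 CPM of Il6 in KO (24 UMIs) and 24.4 CPM in WT (66 UMIs). Cluster 9, the unnamed group led by Ace and Tppp3, stood at 29.9 CPM in KO cells and 26.4 CPM in WT cells. Both were above every compared tumor class taken whole. Clusters 13 and 0 inside the monocyte or macrophage-like class stood higher than both in each library. Cluster 9 was also above every compared tumor class for Il6ra, at 129.7 CPM in KO cells and 155 CPM in WT cells. It stood at 43.3 CPM of Il6st in KO and 42.5 CPM in WT. Migratory dendritic-like cells held 60.8 CPM of Il6st in KO and 46.9 CPM in WT, and plasmacytoid dendritic-like cells of tumors 43.2 CPM in KO and 40.4 CPM in WT.

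Socs3 moved in opposite directions in tumor classes, with a KO over WT ratio of 2.20 in monocyte or macrophage-like cells and 0.562 in NK-like cells. The difference between these ratios was not tested, because each group is 1 library.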

How the results depend on the processing

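No paired analysis was possible because each group is 1 library. Of the 8 called pairs of gene and class in bone marrow, 5 were called with a mean over cells, 3 in thinned cells and 2 with at least 200 UMIs, and these counts need not hold the same pairs; of the 83 called pairs of the pathway lists there, 32 were called in thinned cells and 40 with at least 200 UMIs. Thinning and the higher minimum leave fewer measured pairs, 17 and 18 in place of 34 for the 7 genes. The tumor counts of 10 and 91 moved by less than 1.5 times under each alternative run (8 to 13 and 71 to 106). Direction turned for Osm in granulocyte progenitor-like cells as a mean over cells (0.665), for Osm in tumor T-like cells at resolution 2 (0.831) and for Il6 in tumor monocyte or macrophage-like cells with clusters weighted equally (0.830); the cause was not tested. Of the 18 called ratios, all kept their direction with all UMIs as the total, at most 5% mitochondrial UMIs, doublets kept, thinned cells, centring on the median gene and the highest cell left out, and 12 were still called with doublets kept and 10 in thinned cells. Equal weighting of clusters, which could be computed for 12 of them, and centring were chosen after seeing the data. Depth limits Il6 and Saa3 in bone marrow and every gene in the 222 WT tumor neutrophil-like cells.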
